A study of Mus musculus with 6 samples.

Results

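Chemokines are small secreted proteins that direct cell migration, and the 62 mouse genes described here are the ligands of the Ccl, Cxcl, Cx3cl and Xcl families together with their receptors. A gene was included when its RefSeq symbol matched the numbered names of these families or was Cx3cl1, Cx3cr1, Xcl1, Xcr1 or one of the atypical receptors Ackr1 to Ackr4. Of the 62 genes, 56 had a probe whose RefSeq transcript accession named them, and 50 were bright enough to be tested, among 15302 genes tested in all. The arrays were made from inguinal white adipose tissue (iWAT), the subcutaneous fat of the groin, of mice lacking Zip13 (Zip13-KO) and of wild-type (WT) littermates, with 3 arrays per genotype. Zip13, whose gene symbol is Slc39a13, encodes a zinc transporter. In the Zip13-KO mice, exons 6 to 8 were replaced by a Neo cassette in every cell of the body, so the allele does not single out adipocytes or immune cells. Both genotypes were 10 weeks old, were of the C57BL/6J background after at least 7 generations of backcrossing, and ate powdered feed because the mutants have missing teeth. The labels name a standard and a high-fat feed without saying which the mice of the arrays had, and they give neither sex nor whether the 3 samples of a genotype came from separate animals. The p values therefore measure the spread between these samples, which may be technical.

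Chemokines bind receptors with 7 membrane-spanning segments that couple to Gi proteins, and the receptors a leukocyte carries decide which gradients it can follow. Inflammatory chemokines are induced at sites of injury or stress and draw monocytes, neutrophils or effector lymphocytes out of the blood, whereas homeostatic chemokines are made steadily and place lymphocytes and stem cells in lymphoid organs, skin and mucosa. Atypical receptors bind chemokines without Gi signalling and remove or transport them. In adipose tissue, the axis of Ccl2 and Ccr2 is known for recruiting monocytes that become macrophages. The genes were divided by the cells that the principal receptor marks into 27 myeloid-attracting, 13 lymphoid and 18 homeostatic members and 4 atypical receptors. Several members act on more than 1 kind of cell, and each was placed in 1 class.

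The values are log2 of the background-subtracted intensity after quantile normalization, on a scale where 1 unit is a 2-fold change. Levels of different genes cannot be compared, because each is read by its own probe. All 6 arrays lay on 1 slide and were scanned on 1 day, with the 3 WT arrays and Zip13-KO replicate 1 in the first of 2 lines of arrays and Zip13-KO replicates 2 and 3 in the other. The share of spots well above background was 62.5% to 63.2% in WT and 58.8% to 60.4% in Zip13-KO arrays. Slc39a13 fell by 4.33 on the log2 scale in Zip13-KO iWAT (limma adjusted p = 0.00128) but stayed well above background on all 3 arrays, and whether its probe lies within the deleted exons was not analysed here. The adipocyte markers Adipoq and Fabp4 were well above background on every array, as were Cd3e of T cells and Glycam1 of lymph node vessels. In whole tissue, fewer cells of a type and less RNA per cell cannot be told apart.

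Myeloid-attracting chemokines and their receptors were the members that changed most often. A member was called when its limma adjusted p was under 0.05 and its change exceeded 1.5-fold. By this rule 20 of the 50 tested members were lower and 2 were higher in Zip13-KO iWAT, while 28 were not called. Across all genes tested, 8.38% were called lower and 10.3% higher. Of the 20 members called lower, 16 were myeloid-attracting (16 of 23 tested), 1 was lymphoid (Cxcl16, of 11 tested), 1 was homeostatic (Ccl19, of 12 tested) and 2 were atypical receptors (Ackr1 and Ackr2, of 4 tested). The 2 called higher, Ccl25 and Ccl27a, were both homeostatic ligands. The median log2 fold change was -1.72 for myeloid-attracting, -0.16 for lymphoid and 0.18 for homeostatic members and -0.62 for atypical receptors, against 0.00 for all genes tested. With the 3 myeloid-attracting members that were not above background in Zip13-KO iWAT set at their bounds, the myeloid median was -1.29. The homeostatic median had no settled sign, being -0.02 when the probes of a gene were averaged and -0.19 when all 6 arrays had to be above background.

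All 23 myeloid-attracting members tested had a lower mean in Zip13-KO than in WT iWAT, although without WT replicate 2 the differences of 2 of them were above 0. In 17 the genotypes were apart, with the 3 WT arrays all higher than the 3 Zip13-KO arrays, and over all 50 members this held for 25, against 25.9% of all genes tested. In the other direction, 5 members were apart with Zip13-KO higher, against 29.2% of all genes. Testing required a signal well above background on the 3 arrays of WT, of Zip13-KO or of both. For Cxcl5, Cxcl2, Cxcr1 and Xcr1 only WT met this, so they could pass only through the genotype in which they were high, and for Ccl28 and Ccl1 only Zip13-KO met it. When a gene had to be above background on all 6 arrays, 44 members were tested and 17 were lower, 13 of them myeloid-attracting. Of the 14632 genes tested under that rule, 1164 were lower.

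**Figure D1:**
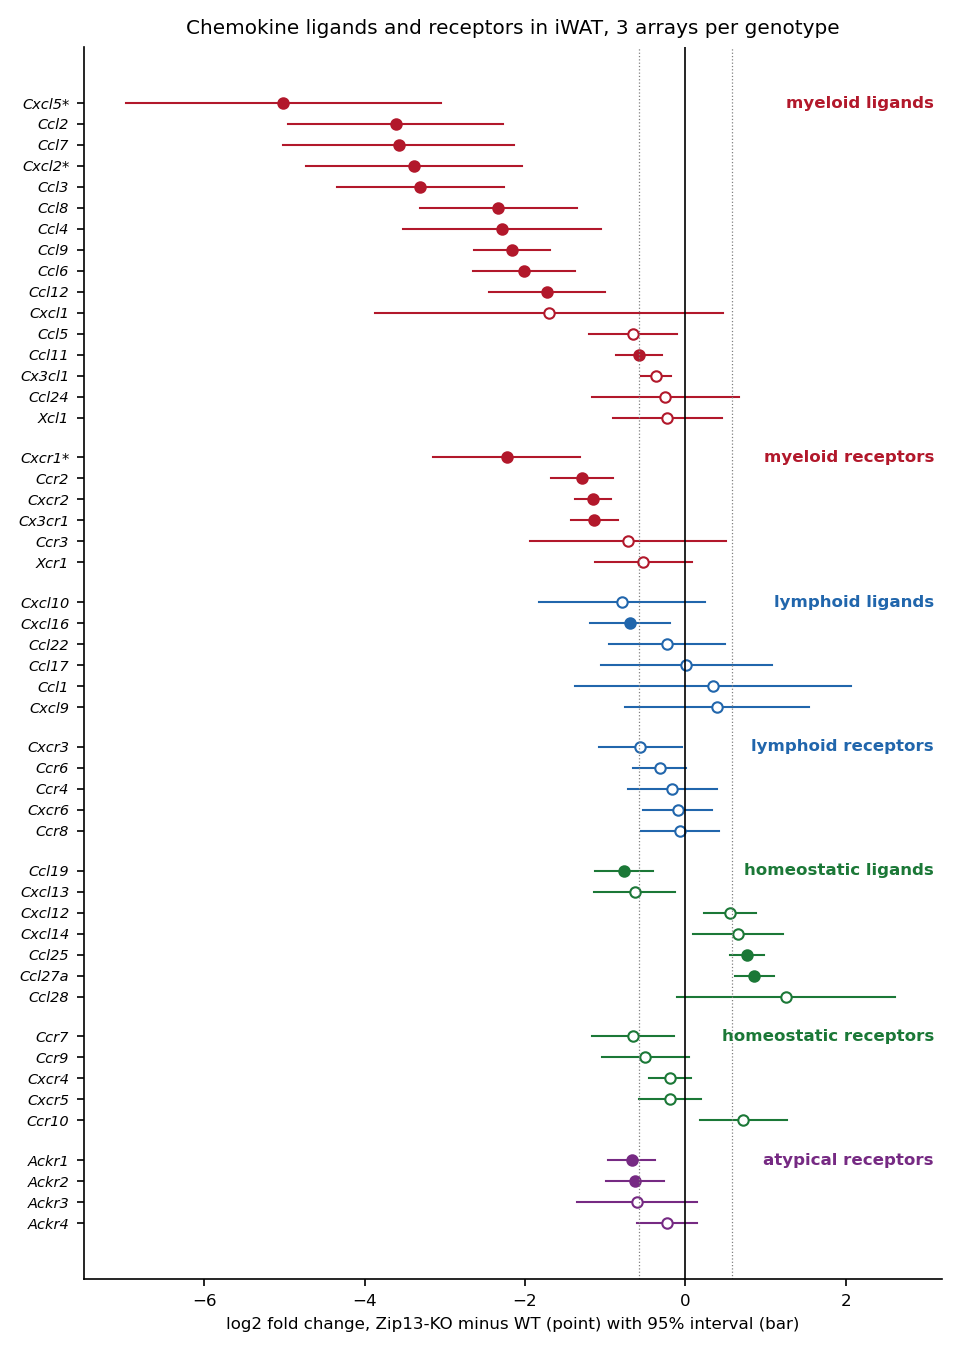
The log2 fold change of 49 tested members (horizontal axis, Zip13-KO minus WT) is drawn with its 95% interval, grouped by class and by role. Filled points were called, open points were not, dotted lines mark 1.5-fold, and an asterisk marks a gene not above background in Zip13-KO iWAT, whose plotted change is the fitted value. The 22 myeloid-attracting members drawn all lie left of 0, and the 2 filled points right of 0 are Ccl25 and Ccl27a.

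The monocyte chemoattractants that act through Ccr2, namely Ccl2, Ccl7 and Ccl12, and Ccl8, which lies beside them in the genome, were all called lower. Ccl2 (NM_011333), the principal monocyte-recruiting chemokine, had log2 intensities of 12.66, 13.56 and 11.51 in WT replicates 1, 2 and 3 and of 9.62, 8.66 and 8.63 in the Zip13-KO replicates. The genotypes were far apart, and the lowest WT array was still above the highest Zip13-KO array. The mean fell from 12.58 ± 1.03 to 8.97 ± 0.56 (SD, n = 3 each), a log2 fold change of -3.61 (95% interval -4.95 to -2.27, limma adjusted p = 0.00819). Ccl7 (NM_013654), its neighbour and close relative, read 12.25, 13.28 and 10.91 in WT against 9.01, 8.15 and 8.57 in Zip13-KO iWAT. As for Ccl2, WT replicate 2 was highest and WT replicate 3 lowest of the WT arrays, and the genotypes did not overlap (log2 fold change -3.57, SE 0.59, limma adjusted p = 0.0097).

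Ccl8 (NM_021443), which is highly expressed by tissue macrophages, read 16.27, 15.51 and 14.92 in WT and 12.94, 12.94 and 13.83 in Zip13-KO iWAT. Here WT replicate 1 was the highest array and Zip13-KO replicate 3 stood above the other Zip13-KO arrays, again without overlap (log2 fold change -2.33, SE 0.40, limma adjusted p = 0.0104). Ccl12 (NM_011331), a mouse ligand of Ccr2 next to Ccl11 in the genome, read 10.50, 10.87 and 9.73 against 8.47, 8.54 and 8.91. It fell by 1.72 on the log2 scale (SE 0.30, limma adjusted p = 0.0106), and the genotypes were separate.

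Among the other inflammatory CC ligands, which attract monocytes, macrophages and effector T cells, Ccl3, Ccl4, Ccl6 and Ccl9 were lower and Ccl5 was not called. Ccl3 (NM_011337) read 9.11, 8.38 and 7.34 in WT and 5.14, 4.99 and 4.79 in Zip13-KO iWAT. The Zip13-KO arrays differed little from each other and all lay more than 2 units below the WT arrays (log2 fold change -3.30, SE 0.43, limma adjusted p = 0.00633). The size of this difference depended on the background correction and was smallest with normexp, at -2.04. Ccl4 (NM_013652), made with Ccl3 by activated macrophages and lymphocytes, read 9.28, 9.996 and 8.02 against 7.27, 6.70 and 6.48. The genotypes did not overlap, but the WT arrays spread over almost 2 units (log2 fold change -2.28, SE 0.51, limma adjusted p = 0.0197). Without Zip13-KO replicate 2 or 3 Ccl4 was no longer called (adjusted p = 0.0666 and 0.0619).

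Ccl6 (NM_009139) and Ccl9 (NM_011338), macrophage-derived ligands of Ccr1, spread less than Ccl3 and Ccl4 over the WT arrays. Their ranges were 0.87 and 0.45 units in WT and 0.59 and 0.60 in Zip13-KO iWAT. Ccl6 read 15.98, 15.71 and 15.11 in WT and 13.49, 13.34 and 13.93 in Zip13-KO iWAT, with WT replicate 3 the closest to the mutant arrays. The genotypes did not overlap, and the log2 fold change was -2.01 (SE 0.26, limma adjusted p = 0.00633). Ccl9 read 14.43, 14.35 and 13.98 against 11.97, 11.85 and 12.45. The gap between the nearest arrays of the genotypes was 1.53 units, and the log2 fold change was -2.16 (SE 0.20, limma adjusted p = 0.00441). Ccl5 (NM_013653), which T cells and NK cells also make in quantity, read 14.33, 15.05 and 14.75 against 13.80, 14.00 and 14.37. Zip13-KO replicate 3 lay just above WT replicate 1, and the difference of -0.65 was not called (95% interval -1.20 to -0.10, limma adjusted p = 0.0674).

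The CXC ligands of Cxcr2, which attract neutrophils, held the largest fitted fall of all members in the processed signal. Cxcl5 (NM_009141) read 6.68, 8.61 and 6.00 in WT and 3.32, 1.48 and 1.46 in Zip13-KO iWAT, where no array was well above background. The WT arrays spread widely, with replicate 2 highest, yet all were above the mutant arrays (fitted log2 fold change -5.01, SE 0.81, limma adjusted p = 0.00915). Because the mutant level has only an upper bound, Cxcl5 is given as at least 10.5-fold lower. This bound rests partly on WT replicate 2 and was 6.19-fold without it, and the fitted log2 fold change was -1.64 with normexp and -2.04 without background subtraction. Such a bound sets each Zip13-KO array to the higher of its own value and the lowest signal well above background on that array. Cxcl2 (NM_009140) read 4.16, 6.21 and 4.17 against 1.46, 1.45 and 1.47. WT replicate 2 again stood above the other WT arrays, no Zip13-KO array was well above background, and the fall was at least 2.19-fold (fitted limma adjusted p = 0.00942). Without WT replicate 2 the bound was 1.37-fold, and the fitted log2 fold change was -0.65 with normexp and -0.87 without background subtraction.

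Cxcl1 (NM_008176), another of these neutrophil attractants, was not called. It read 6.52, 8.88 and 6.30 in WT and 6.99, 4.66 and 4.95 in Zip13-KO iWAT. Zip13-KO replicate 1 lay above 2 of the WT arrays, so the genotypes overlapped (log2 fold change -1.70, 95% interval -3.87 to 0.47, limma adjusted p = 0.181). Cxcl3 was above background only on WT replicate 2, where it read 6.47, against 2.13 and 2.15 on the other WT arrays and 1.45 to 1.57 on the Zip13-KO arrays. It was therefore not tested. Cxcl15, an epithelial chemokine of the lung, was not above background on any array.

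The start regions of these neighbouring CXC genes are shown because they share the same short match to the NF-κB consensus, and of the 3 shown only Cxcl2 was called lower. Ccl9 is shown as a called myeloid CC ligand with a match near its start, and Cxcl10 as a lymphoid ligand with matches that was not called. Each sequence holds the 250 bases before the transcript start in RefSeq (GRCm38.p6), written 5′ to 3′ on the gene's own strand, with matches on either strand in capitals.
Cxcl1 (chr5:90890995-90891244, plus strand): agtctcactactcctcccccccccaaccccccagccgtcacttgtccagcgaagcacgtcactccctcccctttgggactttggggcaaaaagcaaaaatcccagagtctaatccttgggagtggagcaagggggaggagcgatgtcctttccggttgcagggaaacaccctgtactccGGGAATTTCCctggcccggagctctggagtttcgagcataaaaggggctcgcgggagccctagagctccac
Cxcl2 (chr5:90903649-90903898, plus strand): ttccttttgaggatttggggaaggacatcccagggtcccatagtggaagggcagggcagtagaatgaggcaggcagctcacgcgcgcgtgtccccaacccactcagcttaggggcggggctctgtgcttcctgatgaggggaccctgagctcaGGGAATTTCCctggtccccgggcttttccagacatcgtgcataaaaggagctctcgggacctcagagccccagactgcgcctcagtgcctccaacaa
Cxcl3 (chr5:90785851-90786100, plus strand): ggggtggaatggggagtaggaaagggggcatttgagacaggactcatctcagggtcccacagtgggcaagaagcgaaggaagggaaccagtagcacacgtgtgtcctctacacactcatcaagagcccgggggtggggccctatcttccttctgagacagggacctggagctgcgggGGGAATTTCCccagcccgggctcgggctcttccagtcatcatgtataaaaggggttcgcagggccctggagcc
Ccl9 (chr11:83578637-83578886, minus strand): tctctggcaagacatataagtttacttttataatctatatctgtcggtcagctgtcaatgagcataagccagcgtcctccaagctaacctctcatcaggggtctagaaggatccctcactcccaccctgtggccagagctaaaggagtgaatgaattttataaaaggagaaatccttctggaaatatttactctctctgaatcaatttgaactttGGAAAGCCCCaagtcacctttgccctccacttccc
Cxcl10 (chr5:92348890-92349139, minus strand): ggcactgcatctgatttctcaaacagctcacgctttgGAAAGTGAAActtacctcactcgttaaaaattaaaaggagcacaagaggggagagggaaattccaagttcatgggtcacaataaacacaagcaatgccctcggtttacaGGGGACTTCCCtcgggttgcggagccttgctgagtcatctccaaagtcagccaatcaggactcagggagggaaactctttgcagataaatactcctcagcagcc

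The match in Cxcl1, Cxcl2 and Cxcl3 is the same 10 bases, GGGAATTTCC, and begins 71, 97 and 73 bases before the start. That in Ccl9 lies on the opposite strand, 35 bases before the start. Cxcl10 holds 2 overlapping NF-κB matches and, further upstream, a match to the core of the interferon-stimulated response element, searched as a pair of GAAA separated by any 2 bases. Promoters were given for 46 of the 62 members, in 53 start regions. An NF-κB match was found in 10 of the 53 (18.9%), against 5.0% of 32851 mouse start regions of the same length, and an interferon element in 3 (Ccl19, Cxcl10 and Cxcl14; 5.66%, against 2.98%). By class, NF-κB matches were in 5 of 18 myeloid-attracting start regions (27.8%), 4 of 12 lymphoid (33.3%) and 0 of 19 homeostatic ones. Among members called lower, 3 of 13 start regions held one (Ackr2, Ccl9 and Cxcl2). Others called lower, among them Ccl2, Ccl7, Ccl4, Ccl11, Cxcl5 and Cxcl16, had no start region to search. The shares therefore do not describe all members that fell. A match describes letters in this window and does not show that a factor binds there.

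The eotaxins Ccl11 and Ccl24, ligands of Ccr3 that attract eosinophils, had small differences, and only Ccl11 was called. Ccl11 (NM_011330) was at the edge of the fold threshold, with 11.34, 11.34 and 11.03 in WT and 10.69, 10.53 and 10.76 in Zip13-KO iWAT. The genotypes were separate but close, with a log2 fold change of -0.5805, or 1.495-fold, just past the threshold of 0.58 (SE 0.12, limma adjusted p = 0.0153). The call was lost with other scalings or backgrounds, where the change was -0.51 to -0.53, and without WT replicate 1 or 2 or Zip13-KO replicate 1 or 2 (-0.53, -0.53, -0.59 and -0.51, the last 2 with an adjusted p of 0.055 and 0.0581). Ccl24, the other eotaxin above background, differed by -0.25 with overlapping genotypes (limma adjusted p = 0.632), and Ccl26 was not above background on any array. Cx3cl1, the membrane-bound ligand of Cx3cr1, passed the adjusted p but not the fold threshold. It read 8.98, 8.96 and 8.81 against 8.56, 8.53 and 8.56 (log2 fold change -0.37, limma adjusted p = 0.0177), a small but non-overlapping difference. Xcl1, which attracts cross-presenting dendritic cells, differed by -0.22 and had the smallest change of the myeloid-attracting ligands (limma adjusted p = 0.558).

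**Figure D2:**
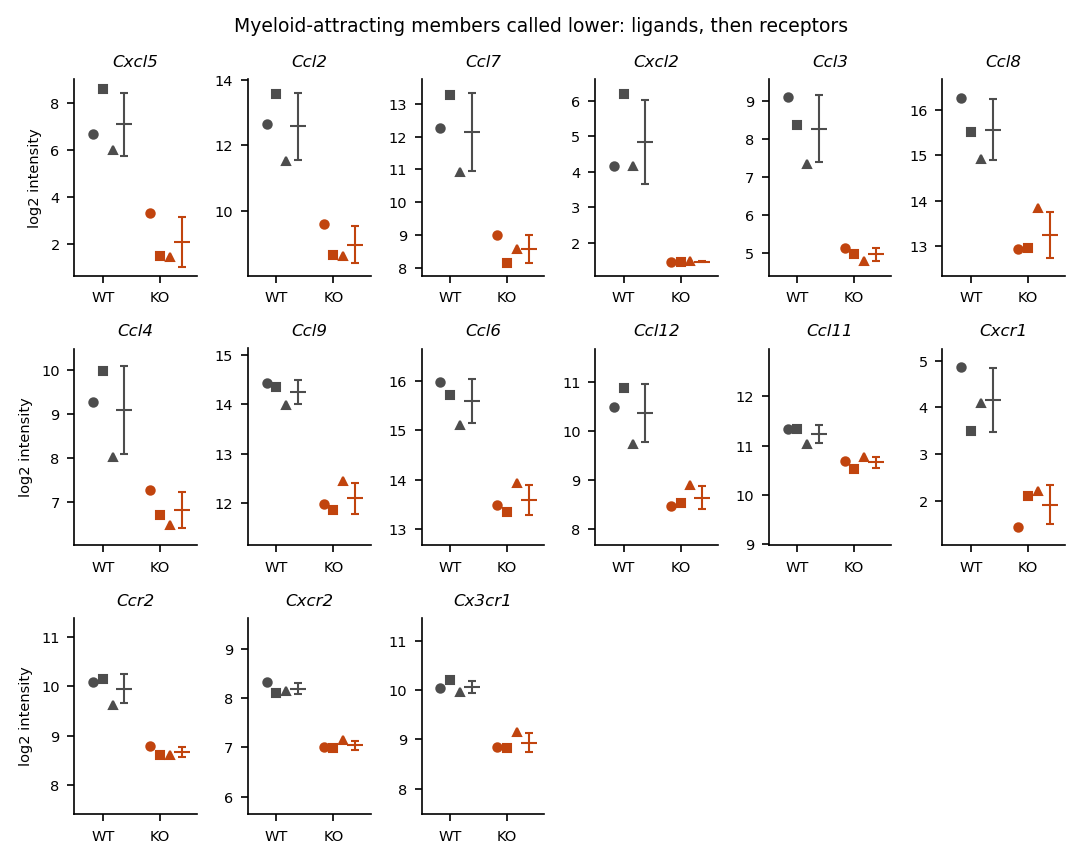
The log2 intensity (vertical axis) of the myeloid-attracting members described as called lower is shown for WT (grey) and Zip13-KO (KO, orange) arrays. Circles, squares and triangles are replicates 1, 2 and 3, and the bar beside them is the mean with its SD (n = 3). Each panel has its own axis range because levels of different probes cannot be compared. In every panel the 3 Zip13-KO arrays lie below the 3 WT arrays.

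Of the receptors that myeloid cells carry, 5 of the 7 tested were lower, with a median log2 fold change of -1.15. Ccr2 (NM_009915), the receptor of inflammatory monocytes, read 10.08, 10.15 and 9.61 in WT and 8.79, 8.60 and 8.60 in Zip13-KO iWAT. WT replicate 3 was nearest to the mutant arrays, which were tightly grouped below it (log2 fold change -1.29, SE 0.16, limma adjusted p = 0.00586).

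Cx3cr1 (NM_009987), the fractalkine receptor of patrolling monocytes and many resident macrophages, read 10.05, 10.20 and 9.95 in WT and 8.84, 8.82 and 9.15 in Zip13-KO iWAT. Its 3 probes gave the same difference within 0.09 units, from -1.05 to -1.13, and the genotypes did not overlap (limma adjusted p = 0.00489). Cxcr2 (NM_009909), the main neutrophil receptor for Cxcl1, Cxcl2 and Cxcl5, read 8.32, 8.11 and 8.14 against 7.00, 6.99 and 7.15. Arrays within a genotype differed by about 0.2 units and the genotypes by 1.15 (log2 fold change -1.15, SE 0.09, limma adjusted p = 0.00407), the smallest adjusted p among all members. Cxcr1 (NM_178241), its neighbour in the genome, was dim, with 4.86, 3.50 and 4.10 in WT and 1.45, 2.11 and 2.21 in Zip13-KO iWAT, where it was not above background. It was at least 1.36-fold lower (fitted limma adjusted p = 0.0101), a bound of 1.06-fold without WT replicate 1, and without background subtraction the fitted difference was only -0.39 (adjusted p = 0.0552).

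The other 2 myeloid receptors tested were not called. Ccr3, the eosinophil receptor, read 6.83, 6.93 and 5.80 against 5.92, 4.89 and 6.62, with overlapping genotypes (log2 fold change -0.71, limma adjusted p = 0.304). Xcr1, a marker of cross-presenting dendritic cells, read 4.26, 4.78 and 4.70 against 4.55, 3.86 and 3.76, and also overlapped (log2 fold change -0.52, limma adjusted p = 0.146). Ccr1, a receptor for Ccl3, Ccl6 and Ccl9, was above background only on WT replicate 2, where it read 3.82, and was not tested.

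Lymphoid chemokines and receptors mostly stayed within the spread of the arrays. Of 11 tested, 8 had a lower mean in Zip13-KO iWAT, and Cxcl16 alone was called (9.09%, near the 8.38% of all genes). The lymphoid median of -0.16 was -0.43 without WT replicate 1 and 0.01 without WT replicate 2. Cxcl16 (NM_023158), a membrane-bound ligand of Cxcr6 that also serves as a scavenger receptor, read 10.17, 10.45 and 10.58 in WT and 9.41, 9.61 and 10.11 in Zip13-KO iWAT. The closest arrays of the genotypes differed by only 0.06 units (log2 fold change -0.69, SE 0.20, limma adjusted p = 0.0439). The call was lost without WT replicate 2, WT replicate 3, Zip13-KO replicate 1 or Zip13-KO replicate 2 (adjusted p = 0.104 to 0.125) and when no filter on dim probes was used (0.0807).

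The interferon-induced ligands of Cxcr3 did not move together. Cxcl10 had the largest fall in mean among lymphoid members and read 10.16, 11.27 and 10.04 in WT and 9.40, 9.32 and 10.39 in Zip13-KO iWAT, where replicate 3 was above 2 of the WT arrays (log2 fold change -0.78, 95% interval -1.82 to 0.25, limma adjusted p = 0.193). Cxcl9 had the largest rise in mean and read 10.09, 12.06 and 10.998 against 11.60, 11.54 and 11.20. The WT arrays enclosed the Zip13-KO arrays on both sides (log2 fold change 0.40, 95% interval -0.75 to 1.55, limma adjusted p = 0.541), and without WT replicate 1 the difference was -0.08. Cxcl11, the other interferon-induced ligand, was not analysed here. Their receptor Cxcr3, carried by effector T cells and NK cells, read 9.95, 10.79 and 10.23 against 9.86, 9.75 and 9.68. All Zip13-KO arrays were below all WT arrays, but by as little as 0.09 units, and the difference of -0.56 was not called (limma adjusted p = 0.0877; 0.0336 without WT replicate 1).

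The other lymphoid ligands tested were Ccl1, Ccl17 and Ccl22, which act on Ccr8 or Ccr4 of type 2 and regulatory T cells. Their differences were 0.34, 0.01 and -0.23, with adjusted p values of 0.579 to 0.986, and for Ccl1 and Ccl17 the WT arrays alone spanned the whole range of the mutant ones. The receptors Ccr4, Ccr6, Ccr8 and Cxcr6 differed by -0.06 to -0.32, and none was called. Ccr8 had the smallest change, reading 5.13, 5.65 and 5.78 in WT and 5.39, 5.71 and 5.28 in Zip13-KO iWAT, with the arrays intermixed (limma adjusted p = 0.83). The 95% interval of that difference was -0.55 to 0.42. Ccl20, the ligand of Ccr6, was not above background on any array.

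Of 12 homeostatic members tested, 1 was called lower (8.33%, near the 8.38% of all genes) and 2 were called higher (16.7%, beside 10.3%). Ccl19 (NM_011888), which guides T cells and dendritic cells through Ccr7, read 12.66, 12.63 and 12.92 in WT and 11.72, 12.02 and 12.19 in Zip13-KO iWAT. The genotypes did not overlap (log2 fold change -0.76, SE 0.15, limma adjusted p = 0.0137), and its 3 probes gave -0.75 to -0.77. Ccr7 (NM_007719), the receptor of Ccl19 and Ccl21, read 13.54, 13.73 and 14.01 against 12.69, 13.30 and 13.33. It too was separate between genotypes but missed the threshold (log2 fold change -0.66, limma adjusted p = 0.0554). Cxcl13, which draws B cells into follicles, read 12.96, 12.38 and 13.11 against 12.01, 12.36 and 12.19, with the nearest arrays almost equal (log2 fold change -0.63, limma adjusted p = 0.0591). It was called lower with normexp, without background subtraction, with the deposited table, with a trend and robust prior, and without WT replicate 2. Its receptor Cxcr5 differed by -0.19 with overlapping genotypes (limma adjusted p = 0.381).

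The members called higher were Ccl25 and Ccl27a. Ccl25 (NM_009138), known for guiding T cells to thymus and gut through Ccr9, read 8.23, 8.13 and 8.35 in WT and 8.99, 9.08 and 8.95 in Zip13-KO iWAT. Both genotypes were tight and apart (log2 fold change 0.77, SE 0.09, limma adjusted p = 0.00535). A second, dim Ccl25 probe for the non-coding transcript NR_033527 differed by 0.12 and was not kept. Ccr9 itself differed by -0.50 with overlapping genotypes (limma adjusted p = 0.132).

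Ccl27a (NM_001048179), a skin chemokine that acts on Ccr10, read 9.47, 9.54 and 9.55 against 10.48, 10.47 and 10.19, with no overlap (log2 fold change 0.86, SE 0.10, limma adjusted p = 0.00548). A second probe, for NM_011336, gave 0.93, but another, also for NM_001048179, gave -0.19. The mean of the 3 was 0.53 and below the fold threshold. Ccl27a has a near-identical copy, Ccl27b, so the source of its signal is uncertain. Ccr10 read 6.02, 6.52 and 6.74 in WT and 7.12, 7.44 and 6.89 in Zip13-KO iWAT. All mutant arrays were above all WT arrays, and the difference of 0.72 was just short of the threshold (limma adjusted p = 0.0503; 0.0418 without WT replicate 3). Ccl28, a mucosal ligand of the same receptor, had the largest rise in mean of any member in the processed signal and read 2.87, 4.20 and 3.75 against 5.99, 4.41 and 4.20. The genotypes met at 4.20, and the difference of 1.26 was not called (95% interval -0.10 to 2.62, limma adjusted p = 0.127). It was dim in WT, and its difference was 0.36 with normexp and 0.39 without background subtraction, below that of Ccl27a (0.79 and 0.81).

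Cxcl12 and Cxcl14, which stromal and epithelial cells make, also had higher means. For Cxcl12, which retains stem cells and lymphocytes through Cxcr4, the brighter probe (NM_001012477) read 13.00, 13.03 and 13.42 in WT and 13.68, 13.62 and 13.80 in Zip13-KO iWAT. These arrays did not overlap, and the log2 fold change of 0.55 passed the adjusted p (0.025, limma) but not the fold threshold. A probe for another transcript of Cxcl12 (NM_021704) gave -0.27 with overlapping genotypes, which was not tested. Cxcl14 read 11.46, 11.69 and 10.96 against 12.36, 11.87 and 11.84, without overlap (log2 fold change 0.66, limma adjusted p = 0.0704). With each array scaled to its 75th percentile, Cxcl12 and Cxcl14 were called higher as well, and Cxcl14 was also called with normexp, without background subtraction and with the deposited table. Cxcr4, the receptor of Cxcl12, had its Zip13-KO arrays just below the WT arrays and was not called (log2 fold change -0.19, 95% interval -0.46 to 0.07, limma adjusted p = 0.21). Cxcl17 was not above background on any array, and Ccl21a, Ccl21b, Ccl21c, Ccl21d and Ccl27b were not analysed here.

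**Figure D3:**
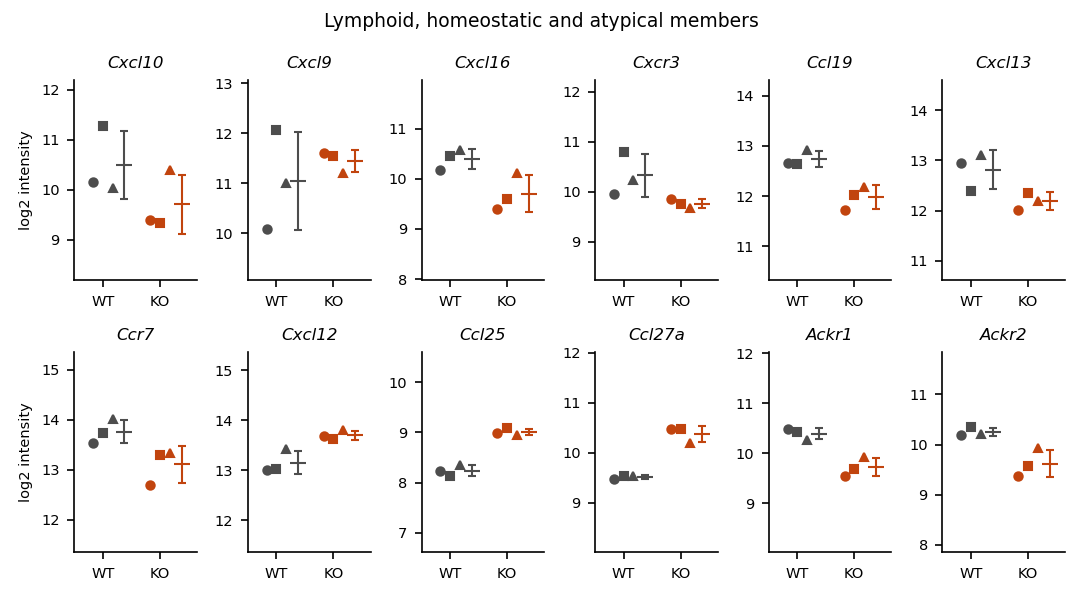
The log2 intensity (vertical axis) is shown for 12 lymphoid, homeostatic and atypical members in WT (grey) and Zip13-KO (KO, orange) arrays. Circles, squares and triangles are replicates 1, 2 and 3, bars are the mean and SD (n = 3), and each panel has its own axis range. Cxcl9 and Cxcl10 overlap between genotypes, Ccl25 and Ccl27a lie higher in Zip13-KO iWAT, and Ccl19, Ackr1 and Ackr2 lie lower.

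The atypical receptors Ackr1 and Ackr2 were lower. Ackr1 (NM_010045), which venular endothelium uses to display and transport inflammatory chemokines, read 10.48, 10.43 and 10.27 in WT and 9.55, 9.69 and 9.92 in Zip13-KO iWAT. The genotypes did not overlap (log2 fold change -0.67, SE 0.12, limma adjusted p = 0.0116). Without Zip13-KO replicate 1 the difference of -0.5787 fell just short of the fold threshold (limma adjusted p = 0.0438). Ackr2 (NM_021609), a scavenger of inflammatory CC chemokines on lymphatic endothelium, read 10.20, 10.35 and 10.21 against 9.37, 9.57 and 9.92. It differed by -0.63 (limma adjusted p = 0.0236), and the call was lost without WT replicate 2, Zip13-KO replicate 1 or Zip13-KO replicate 2 (adjusted p = 0.0646, 0.0665 and 0.0793). Ackr3, which binds Cxcl12, read 12.48, 12.03 and 11.25 against 11.30, 11.15 and 11.499, with overlap (log2 fold change -0.61, limma adjusted p = 0.169). Ackr4, which removes Ccl19 and Ccl21, differed by -0.23 and was not called (limma adjusted p = 0.271).

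Many chemokine genes lie side by side, and neighbours often shared a direction. Of all 50 members tested, however, 41 had a lower mean. Of the myeloid-attracting members 69.6% were called lower, beside 8.38% of all genes. Whether position mattered was not tested. In the group of Ccl2, Ccl7, Ccl11, Ccl12, Ccl8 and Ccl1, 5 of 6 were lower and Ccl1, whose receptor marks T cells, was not called. In the group of Ccl5, Ccl9, Ccl6, Ccl3 and Ccl4, 4 of 5 were lower, and Ccl5 was not called. Cxcr1 and Cxcr2 were both lower. Ccr2 was lower, whereas Ccr9, Cxcr6, Xcr1 and Ccr3 in the same stretch were not called. Neither Cxcl9 nor Cxcl10, which are neighbours, was called, nor was any of Ccl22, Cx3cl1 and Ccl17. Cx3cr1 was lower and its neighbour Ccr8 was not called. Ccl27a and Ccl19, in the same stretch, were called in opposite directions.

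**Figure D4:**
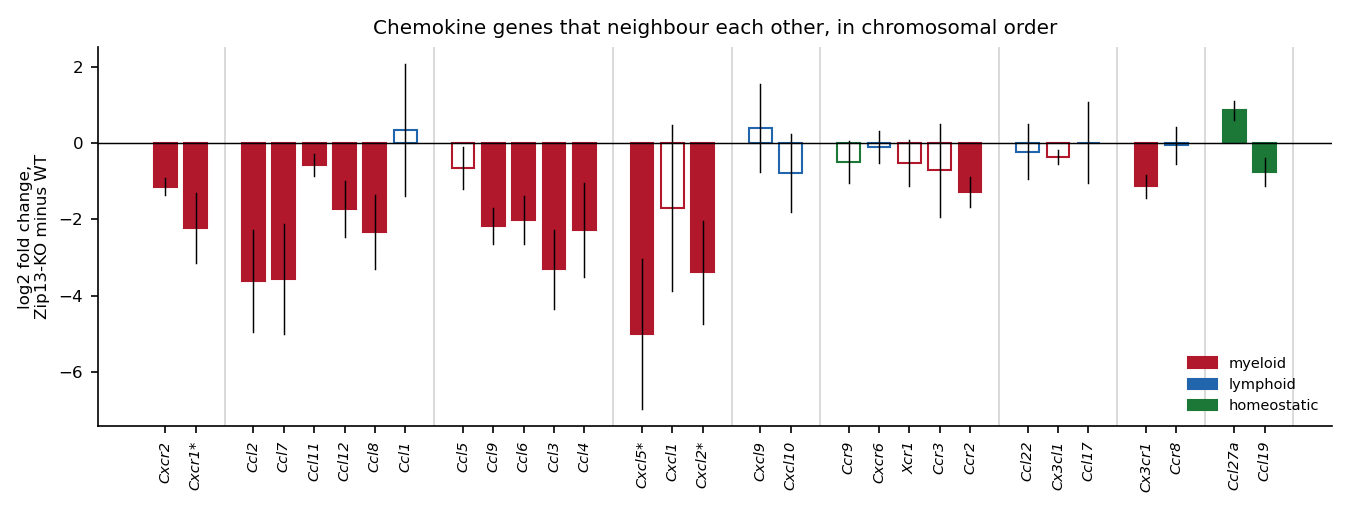
Bars give the log2 fold change (vertical axis, Zip13-KO minus WT) of tested members that neighbour each other in the mouse genome, in chromosomal order and separated by grey lines. Black lines are 95% intervals, filled bars were called, open bars were not, colour marks the class, and an asterisk marks a gene not above background in Zip13-KO iWAT. Long runs of filled bars below 0 stand in the 2 groups of CC ligands, each with an open bar at one end (Ccl1 and Ccl5).

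The WT arrays differed among themselves more than the Zip13-KO arrays did for the myeloid ligands. The range over the 3 WT arrays was wider than that over the 3 Zip13-KO arrays in 15 of the 16 myeloid ligands, with medians of 1.38 and 0.59 units. Among the 7 myeloid receptors it was wider in 4, with medians of 0.54 and 0.42, and among all genes tested in 68.8%, with medians of 0.30 and 0.19. Cxcl5 and Cxcl2 of these ligands and Cxcr1 of these receptors were not above background in Zip13-KO iWAT. Their Zip13-KO ranges, such as 0.02 for Cxcl2, therefore do not measure a spread of expression. WT replicate 2 was the highest of the 6 arrays for 16 of the 23 myeloid-attracting members and WT replicate 1 for the other 7. WT replicate 2 was also highest for 7 of the 11 lymphoid members, while none of the 12 homeostatic members was highest there. Without WT replicate 2, 18 members were called lower, 15 of them myeloid-attracting, and the median over all members moved from -0.62 to -0.50.

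Medians over a class, relative to the WT mean of each gene, showed the same contrast array by array. For the myeloid ligands the medians were 0.09, 0.53 and -0.64 on the WT arrays and -1.999, -2.40 and -1.77 on the Zip13-KO arrays. For the myeloid receptors they were 0.13, 0.20 and -0.11 against -1.19, -1.35 and -1.04. Cxcl5, Cxcl2 and Cxcr1 enter these medians as read, although they were not above background in Zip13-KO iWAT. The lymphoid ligands read -0.77, 0.87 and 0.06 against -0.23, -0.19 and -0.05, so the mutant arrays lay inside the WT range. The medians of the homeostatic ligands, at -0.05, -0.11 and 0.15 against 0.75, 0.50 and 0.59, were higher on each Zip13-KO array, although Ccl19 and Cxcl13 had lower means. Their summed intensity overlapped, at 0.90 to 1.13 of the WT mean in WT and 1.02 to 1.07 in Zip13-KO iWAT. The homeostatic receptors read -0.22, -0.03 and 0.25 against -0.28, -0.16 and -0.32, with Zip13-KO replicate 2 inside the WT range.

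**Figure D5:**
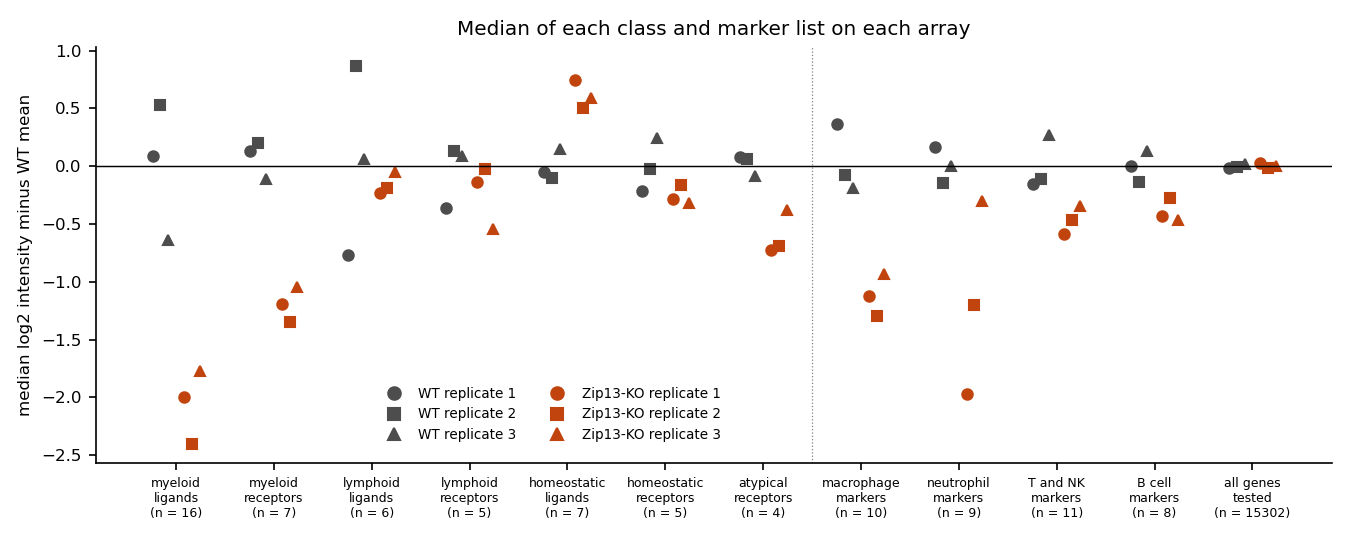
Each point is the median over a class of members, or over a list of cell type markers, on 1 array (vertical axis, log2 intensity minus the WT mean of each gene), with n the number of genes. WT arrays are grey and Zip13-KO arrays orange, with a symbol per replicate, and the dotted line parts members from marker lists. Myeloid ligands, myeloid receptors and atypical receptors lie below the WT arrays on all Zip13-KO arrays. So do the markers of macrophages, neutrophils, T and NK cells and B cells, while all genes tested stay near 0.

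Of the leukocyte markers, those of macrophages (70%) and neutrophils (44.4%) were called lower most often, beside 8.38% of all genes tested. Of 10 macrophage markers, 7 were called lower and all had a lower mean, from -2.57 for Fcgr1 to -0.17 for Itgam, with -1.64 for Adgre1 and -1.87 for Cd68. Their median difference was -1.12, against -2.09 for the myeloid ligands, and their summed intensity was 71882 to 112198 in WT and 36065 to 44675 in Zip13-KO iWAT. Of 9 neutrophil markers tested, 4 (Mpo, S100a9, S100a8 and Camp) were lower and Csf3r differed by 0.01. The median over the 9 was -1.18, with array medians of -1.98, -1.21 and -0.30 in the Zip13-KO arrays, and sums, which the brightest probes dominate, of 79970 to 81726 and 68264 to 71608, and Ly6g had no probe by accession. None of the 6 eosinophil and mast cell markers tested was called, although their sums were 6074 to 19577 and 3884 to 5827, and Epx was not above background. Of 7 dendritic cell markers, Itgax alone was lower (-0.86, 14.3% of the list), with sums of 36051 to 40317 and 34747 to 35794. The part of these cells in the fall of the myeloid-attracting members was not tested.

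Of 11 T and NK cell markers, Eomes alone was called lower (-1.35), a share of 9.09%, near the 8.38% of all genes tested. All 11 had a lower mean, with a median of -0.49 and sums of 33151 to 45107 in WT and 24845 to 29356 in Zip13-KO iWAT. Of 8 B cell markers, Pax5 alone was called lower (-0.61, 12.5% of the list), the median was -0.38, and the sums were 40926 to 48239 and 31610 to 35503. Among 5 lymph node vessel and stroma markers tested, Lyve1 alone was lower (-0.85, 20% of those tested) and Glycam1 was not called (-0.45), with sums of 7783 to 13706 and 6347 to 7223. Their part in the values of Ccl19, Ccr7, Cxcl13 and the lymphoid members was not tested. None of 6 epithelial markers tested out of 9 was called. Of these, 3 had a higher mean and 3 a lower one, from 0.89 for Krt5 to -0.27 for Cdh1. Their sums were 4400 to 4788 and 3947 to 4387, beside the rises of Ccl25 and Ccl27a. Of 6 endothelial markers, Cdh5 was higher (0.77), a share of 16.7%, beside 10.3% of all genes. Selp and Vwf had lower means (-0.63 and -0.29, not called), and the sums were 9347 to 10584 and 10584 to 11277, beside the fall of Ackr1. Of 6 stromal markers, Dpp4 (-1.05) and Pdgfra (-0.65) were lower (33.3%, beside 8.38% of all genes), with sums of 60433 to 122168 and 50915 to 61957. Of 7 adipocyte markers, Pparg, Plin1 and Lipe were higher (42.9%, beside 10.3% of all genes) and the sums were 305593 to 402923 against 461787 to 492060. None of 6 skeletal muscle markers was called, although all had higher means in Zip13-KO iWAT (median 0.95). Zip13-KO replicate 3 stood apart with a summed level of 5682, against 925 to 2759 in WT and 1528 and 2514 in the other Zip13-KO arrays. The part of these cells was not tested either.

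Of 43 genes that transmit chemokine receptor signals, 20 were called lower (46.5%, beside 8.38% of all genes), 23 were not called and none was higher, and the median was -0.52. Those called included the Src family kinase Fgr (-1.29) and Pik3r5 (-1.22), a regulatory subunit of the phosphoinositide kinase that Gβγ activates. Dock2 (-0.75) and Rac2 (-0.67), which drive leukocyte movement, and Arrb2 (-0.82), which desensitizes receptors, were also called. Gnai1 had the largest rise in mean (0.69) and was not called (limma adjusted p = 0.0803).

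Among the cytokines and transcription factors that induce chemokines, 2 of 21 tested out of 24 were lower (9.52%, beside 8.38% of all genes). Irf8 (-0.87), a factor of monocyte development, and Il17ra (-0.84), the Il17 receptor, were lower, and none was higher. Il1b had the largest fall in mean (-1.73) but its genotypes overlapped and it was not called (limma adjusted p = 0.0588). Tnf differed by -0.43 (adjusted p = 0.153) and Rela, the main NF-κB activator, by -0.23 (adjusted p = 0.0769). Cebpb had the largest rise in mean (0.46, adjusted p = 0.0151) and did not reach the fold threshold.

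Of 12 genes that cleave or present chemokines, 5 were lower (41.7%, beside 8.38% of all genes). These were Mmp12 and Ctsg, proteases of macrophages and of neutrophils, Dpp4, which trims the start of several chemokines, and the heparan sulfate carriers Sdc1 (-1.30) and Sdc4 (-0.81). Mmp9 had the largest rise in mean (0.38) and was not called. Among 8 relatives outside the numbered families, 2 were lower (25%, beside 8.38% of all genes). They were Pf4 (-1.38), the platelet chemokine that macrophages also express, and Ccr1l1, a receptor gene beside Ccr1. Ccr1l1 was not above background in Zip13-KO iWAT. Cmklr1, the chemerin receptor, had the largest rise in mean of the 8 (0.30, limma adjusted p = 0.255).

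With the line of arrays on the slide as a term of the fit, where the difference rests on Zip13-KO replicate 1 against the 3 WT arrays, limma called 0 members in either direction and 7 genes in all. The median log2 fold change with this term was -0.61 over members and -1.60 over myeloid-attracting members, against 0.02 over all genes tested. The 20 members called lower without this term had adjusted p values of 0.0578 to 0.163 with it, and since their arrays were already apart by genotype, the sign of their differences adds nothing.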

How the data were processed

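RNA of 3 WT and 3 Zip13-KO iWAT samples was measured by the authors on Agilent SurePrint G3 Mouse GE arrays with 1 colour, and the groups are those of the labels. The scanner files deposited by the authors hold intensity per spot, including a processed signal that the scanner software (Feature Extraction 11.5.1.1) corrected for background. The table that the authors deposited holds log2 intensity, ranks spots as their median signal does, and was quantile normalized per the study's methods. From the processed signal, control and outlier spots were left out, spots of a probe were averaged, and log2 values were quantile normalized. A probe was kept if well above background on all 3 arrays of a genotype. Names came from RefSeq accessions (GRCm38.p6), which named 28331 of 55681 probes, and the brightest kept probe stood for a gene.

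Genotypes were compared with limma 3.58.1 in R 4.3.3, with Benjamini-Hochberg adjustment over 15302 genes, and called at an adjusted p under 0.05 and a log2 difference of means over 0.58. The study's methods use these cutoffs on other quantities, a log2 ratio of medians and a p combined from a t-test and a median-ratio test. The fit was tested on simulated data. An exact test of 3 arrays against 3 cannot give a two-sided p below 0.1, and the number of arrays limits the precision. Members and lists were chosen with earlier results of these data known. Values in every array were given for called members and for the largest and smallest change of each class, and further members were named to account for the rest. Some genes that enter the counts and medians are not reported here by name. Alternatives were other scalings, backgrounds, filters, probe summaries and thresholds, the deposited table, the methods' t-test, the replicate block, the slide position and leaving out each array.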

Additional observations from a re-analysis of the deposited data

How the results depend on the processing

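The count of members lower was 16 to 22 without 1 array (fewest without Zip13-KO replicate 1 or 2), 11 at an adjusted p under 0.01 and 0 with the line of arrays on the slide as a term, where myeloid-attracting, lymphoid, homeostatic and higher members were also at 0 and genes at 0 higher and 7 lower. Members higher were 4 with 75th percentile scaling, 1 with the mean of a gene's probes and 2 to 4 without 1 array. Homeostatic members lower were 2 with normexp, without background subtraction, with the deposited table and with the replicate block, 3 with a trend and robust prior, 0 at an adjusted p under 0.01 and 1 to 2 without 1 array. Lymphoid members lower were 0 with no filter, with the methods' t-test after adjustment and at an adjusted p under 0.01, 0 to 2 without 1 array, and 6 of 20 when members that also act on lymphocytes (Ccl3, Ccl4, Ccl5, Ccl8, Cx3cl1, Cx3cr1, Xcl1 and Xcr1 among them) were counted as lymphoid, which left 11 myeloid-attracting. The median over members was -0.66 to -0.50 without 1 array. Genes higher and lower were 1008 and 721 with the methods' t-test after adjustment, 707 and 505 at an adjusted p under 0.01, 2952 and 2330 with no fold minimum, and 955 to 1670 and 768 to 1475 without 1 array. The cause was not tested. Some members that were not called changed sign: Ccr8 to 0.0072 without background subtraction, 0.016 with the deposited table and from -0.2545 to 0.067 without 1 array, Xcl1 to 0.129 with slide position and from -0.3997 to 0.0566 without 1 array (highest without WT replicate 2), and Cxcl9 from -0.0819 (without WT replicate 1) to 0.904. With the replicate block 19 members were lower, 18 of them shared, Ackr2 and Ccl11 being lost and Ccr7 gained. The deviations of same-numbered samples had correlations of -0.02, 0.04 and -0.08, and those of differently numbered samples -0.17 to 0.18. With 3 samples per genotype these values cannot show whether the samples were paired. The fitted falls of dim genes were smaller with normexp (offset 50), -1.64 for Cxcl5, -0.65 for Cxcl2 and -0.26 for Cxcr1. The 6 members not above background were not tested.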
